A study of Rattus norvegicus with 12 samples.

Results

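Tppp, Tac1 and Nim1k were 3 genes with low intensity after LPS in the cells of rat bronchoalveolar lavage fluid (BALF). What hypobaric hypoxia added was assessed for each gene by itself, and the genes were not tested against each other. Tac1 was low with LPS whether or not the rats were also hypoxic, and no effect of hypoxia was detected on it with the values as deposited. Tppp was lower under hypoxia over both LPS states, by 1.00 on the log2 scale, but its low level under hypoxia was already known when it was chosen. Nim1k was lowest when both exposures were combined, and its average effect of hypoxia did not pass the test. The genes were selected on their difference between LPS and control pools, from genes with a large fall, so that difference is described here and not tested. Each gene was named by 1 probe set alone, which gave 3 probe sets of 31099 on the array and 3 of the 25692 that passed the filter on low values. The selection called them resident-cell genes, which a mixture of cells could not show, and they are called here by their gene names.

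The COMB rats received LPS (lipopolysaccharide, a component of bacterial outer membranes) and then stayed in the decompression chamber. The LPS rats received 0.5 mg/kg through the tail vein at normal pressure. The HPO rats stayed for 6 h at 405.35 mmHg, which corresponds to 5000 m of altitude or 11.2% oxygen. The CTL rats received saline by the same route at normal pressure. All were 8-week-old male Sprague-Dawley rats of about 200 g without food and water during the exposure, and the cells came from lavage of the right lung. Each group had 3 arrays, and each array held pooled RNA of several rats, so variation between single rats was not measured. The study describes 3 rats per pool, whereas the sample titles list 2, 2 and 3 rats for the COMB pools and 3 for every other pool. Pools are named by these rat numbers. The p-values measure the spread between pools, and nothing in the labels ties the pools to separate exposures or array runs.

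Tppp encodes tubulin polymerization-promoting protein, which binds and bundles microtubules and is best known from oligodendrocytes, the myelin-forming cells of the brain. Tac1 encodes the precursor of substance P and neurokinin A, tachykinin peptides released by sensory nerves in the airway and also made by some immune cells, where they act through neurokinin receptors on vessels, smooth muscle and leukocytes. Nim1k encodes a serine/threonine kinase related to AMPK, the sensor of cellular energy, and little is known of its part in lung cells. The Tac1 probe set belongs to the type whose probes are shared by several transcripts of 1 gene, so its peptide isoforms were not separated.

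The promoters are shown because sequence around the starts of the genes is a feature that their selection did not use. The windows are from RefSeq on GRCr8, 250 bases before the annotated start and 50 from it onward, all 3 genes matched, and which start these cells used is not known. Capitals mark the core of the hypoxia response element, ACGTG, and the GC box, GGGCGG, on either strand. The Tppp window is chr1:31109654-31109953 on the minus strand, the Tac1 window is chr4:36645333-36645632 on the plus strand, and the Nim1k window is chr2:53451199-53451498 on the minus strand.
Tppp: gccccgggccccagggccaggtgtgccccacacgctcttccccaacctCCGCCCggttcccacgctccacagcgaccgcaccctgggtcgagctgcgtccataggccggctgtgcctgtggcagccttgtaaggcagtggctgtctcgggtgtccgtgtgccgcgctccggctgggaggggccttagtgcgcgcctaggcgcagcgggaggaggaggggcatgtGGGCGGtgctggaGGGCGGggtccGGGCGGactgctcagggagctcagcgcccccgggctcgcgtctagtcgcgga
Tac1: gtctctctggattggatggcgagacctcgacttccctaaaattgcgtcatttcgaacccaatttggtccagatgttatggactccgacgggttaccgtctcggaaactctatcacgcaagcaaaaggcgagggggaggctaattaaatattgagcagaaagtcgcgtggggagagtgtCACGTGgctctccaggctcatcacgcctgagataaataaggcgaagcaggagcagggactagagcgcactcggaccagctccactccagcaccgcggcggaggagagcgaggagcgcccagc
Nim1k: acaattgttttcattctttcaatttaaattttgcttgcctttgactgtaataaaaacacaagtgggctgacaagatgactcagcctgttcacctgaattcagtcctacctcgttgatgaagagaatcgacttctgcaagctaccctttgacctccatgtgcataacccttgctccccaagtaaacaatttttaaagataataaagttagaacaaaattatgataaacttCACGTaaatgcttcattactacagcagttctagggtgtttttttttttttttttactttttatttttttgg

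The Tppp window was GC-rich, at 73.3%, and held 4 GC boxes, 3 of them beginning at bases -26, -13 and -2. It held no hypoxia response core. The Tac1 window, at 56% GC, held the palindromic E-box CACGTG, which contains the hypoxia response core on both strands, from base -72. It also held 1 cyclic AMP response motif, TGACG. The printed Nim1k window, at 33.7% GC, held 1 hypoxia response core at base -21, 1 AP-1 motif (TGANTCA) and 1 glucocorticoid response motif (AGAACA). RefSeq lists 3 starts for Nim1k and the outermost is printed. The other 2 windows, at 61.7% and 43.7% GC, held no hypoxia response core, each held 1 glucocorticoid response motif, and 1 of them also held an AP-1 motif and a TATA motif (TATAAA). None of the 5 windows held the kappa-B motif searched. Among 33469 RefSeq promoters of the same length, searched on both strands, 19.3% held the hypoxia response core, 6.42% the E-box, 33.1% the GC box, 21.2% TGACG, 7.33% the AP-1 motif, 20.7% the glucocorticoid response motif, 14.2% TATAAA and 7.51% the kappa-B motif. These are matches of letters and not sites of binding.

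The RNA came from a mixture of cells. Alveolar macrophage markers, of which 10 of 13 were measured, were abundant on all arrays, with a summed intensity of 24867 to 27598 in COMB pools, 30288 to 33189 in LPS pools, 31215 to 31429 in HPO pools and 29897 to 32425 in CTL pools. The sum was lower in every COMB pool than in any other pool. Airway epithelium markers, 15 of 16 measured, summed to 26530 to 34951 in COMB pools, 17900 to 20102 in LPS pools, 18921 to 20412 in HPO pools and 7849 to 11486 in CTL pools. COMB pools were thus highest and CTL pools lowest, without overlap, and LPS and HPO pools lay between them. Neutrophil markers, 8 of 13 measured, summed to 3758 to 9606 in COMB pools, 1419 to 2144 in LPS pools, 357 to 543 in HPO pools and 521 to 3409 in CTL pools. In a mixture, fewer cells of a type and less RNA per cell cannot be told apart. Their part in the values below was not tested.

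The CTL pool of rats 5, 6 and 7 stood apart from the other CTL pools. Its neutrophil markers summed to 3409, against 553 and 521 in the other 2 CTL pools, and its T and NK cell markers to 3324, against 624 and 1184. It was also the CTL pool with the lowest intensity of Tppp, of Tac1 and of Nim1k. The differences that rest on the CTL pools are therefore also given without it. Among COMB pools, the T and NK cell markers summed to 1344, 8400 and 6880, so the pool of rats 2 and 3 was well below the other 2.

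**Figure D1:**
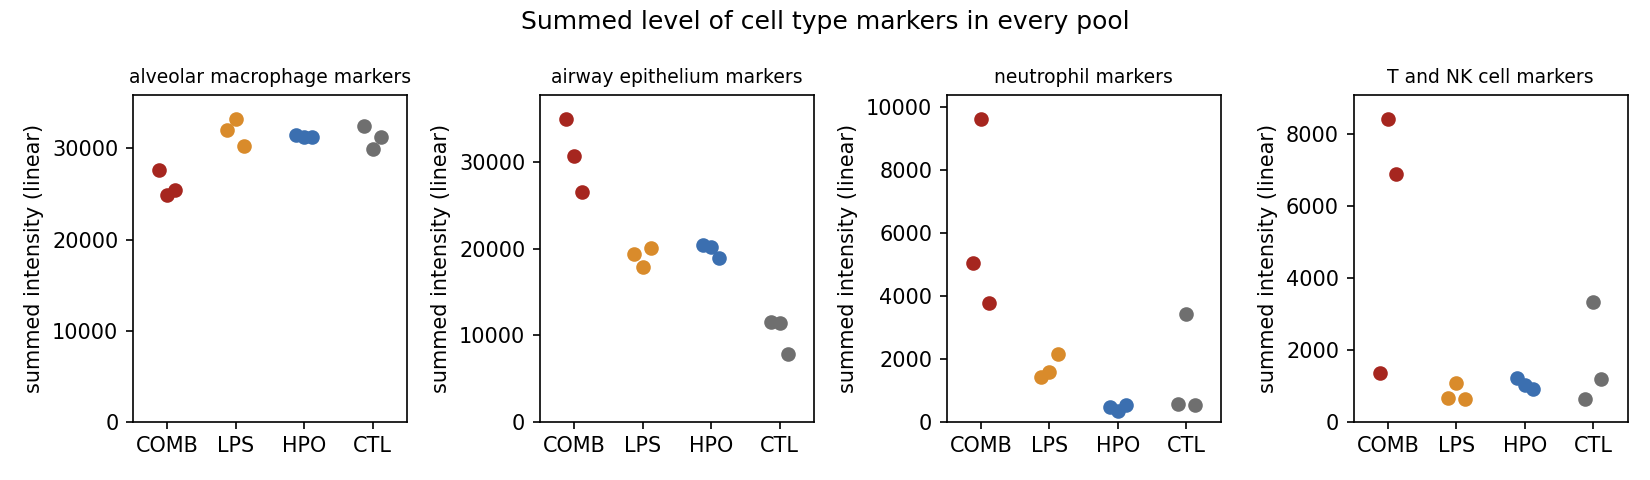
Summed intensity (linear) of 4 cell type marker lists on the vertical axes, 1 point per pool, in COMB, LPS, HPO and CTL pools. Airway epithelium markers are highest in COMB (26530 to 34951) and lowest in CTL (7849 to 11486), and 1 CTL pool lies far above the others for neutrophil markers (3409).

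Tppp had intensities of 90.1, 117 and 125 in the COMB pools (rats 2 and 3, rats 10 and 11, and rats 12, 13 and 14), of 181, 163 and 157 in the LPS pools, of 234, 140 and 135 in the HPO pools and of 517, 327 and 499 in the CTL pools. Every exposed pool was below every CTL pool, every COMB pool was below every LPS pool and every HPO pool, and LPS and HPO pools overlapped. How many of all probe sets separate in such ways was not counted. With 3 pools against 3, the smallest two-sided p of such a separation is 0.1 by exact permutation. Separations of pools, here and below, are therefore descriptions only. The means were 111 ± 18.4 in COMB, 167 ± 12.7 in LPS, 170 ± 55.6 in HPO and 447 ± 105 in CTL (SD, n = 3 each). Relative to the CTL mean, the levels were 24.8% in COMB, 37.3% in LPS and 37.9% in HPO, or 21.8%, 32.9% and 33.4% without the CTL pool of rats 5, 6 and 7.

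Tac1 had intensities of 82.6, 74.5 and 58.9 in COMB pools, of 78.1, 60.8 and 67.8 in LPS pools, of 334, 209 and 335 in HPO pools and of 349, 176 and 266 in CTL pools. All 6 pools that received LPS were below all 6 that did not. COMB and LPS pools overlapped, and so did HPO and CTL pools. The means were 72 ± 12.1 in COMB, 68.9 ± 8.71 in LPS, 293 ± 72.4 in HPO and 264 ± 86.3 in CTL (SD, n = 3 each). These were 27.3%, 26.2% and 111% of the CTL mean in COMB, LPS and HPO, or 23.4%, 22.4% and 95.3% without that CTL pool.

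Nim1k came close to background in COMB pools, with intensities of 15.3, 29.9 and 10.9 in COMB pools, of 26.1, 46.3 and 41.6 in LPS pools, of 66, 78.8 and 76 in HPO pools and of 97.7, 59 and 92.3 in CTL pools. The value of 10.9, in the COMB pool of rats 12, 13 and 14, was under the 20th percentile of its array (11). Its other 11 values were above that limit, as were all values of Tppp and Tac1. COMB and LPS pools overlapped through the COMB pool of rats 10 and 11 and the LPS pool of rats 2, 3 and 6, and HPO and CTL pools also overlapped. The means were 18.7 ± 9.94 in COMB, 38 ± 10.6 in LPS, 73.6 ± 6.75 in HPO and 83 ± 21 in CTL (SD, n = 3 each). These were 22.6%, 45.8% and 88.7% of the CTL mean in COMB, LPS and HPO, or 19.7%, 40% and 77.5% without that CTL pool.

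**Figure D2:**
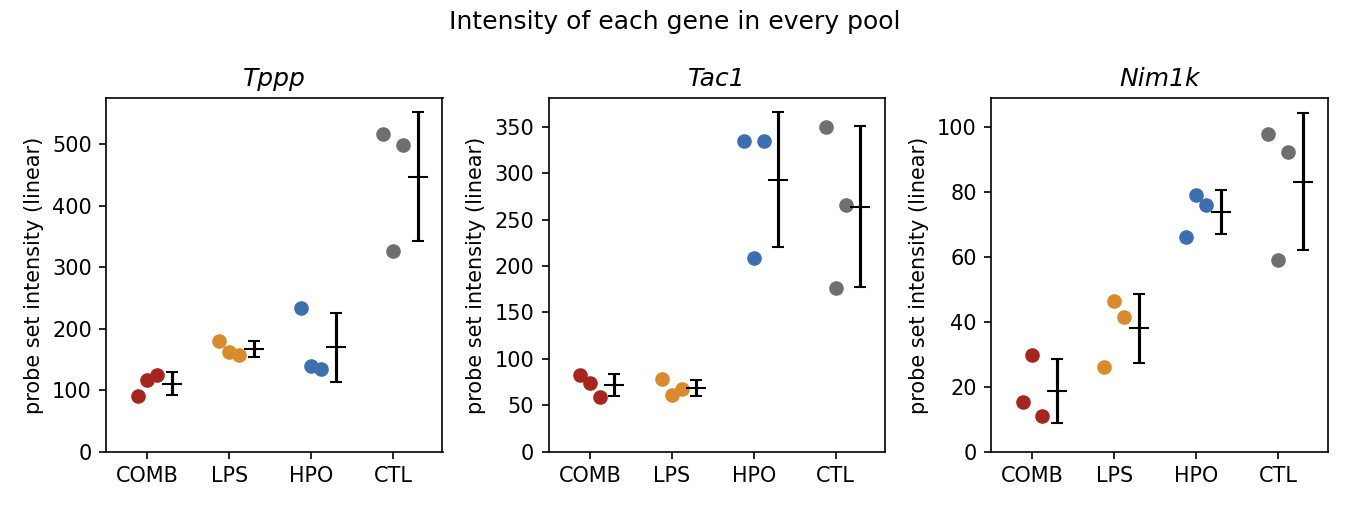
Probe set intensity (linear) of Tppp, Tac1 and Nim1k in the 3 pools of COMB, LPS, HPO and CTL, each point a pool and the bars the mean ± SD. Tppp is low in all 3 exposed groups, Tac1 is low in COMB (58.9 to 82.6) and LPS (60.8 to 78.1), and Nim1k is lowest in COMB (10.9 to 29.9).

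The difference on which the genes were chosen, LPS minus CTL on the scale of log2 of the intensity plus 1, was -1.87 ± 0.245 for Tac1, -1.39 ± 0.224 for Tppp and -1.11 ± 0.316 for Nim1k (SE). In folds these were 3.66, 2.62 and 2.16, all lower with LPS. Among the 12853 genes measured, Tac1 was the lowest, Tppp was number 10 from the lowest and Nim1k number 30. The genes directly after Nim1k were Mccc2 at -1.10, Cd1d1 at -1.09 and Csgalnact1 at -1.09, so no gap separated it from genes that were not chosen. In limma with Benjamini-Hochberg adjustment, 0.868% of the probe sets were called higher and 1.18% called lower in LPS minus CTL, from which nothing is read for the 3 genes. Without the CTL pool of rats 5, 6 and 7, the differences were -2.14 for Tac1, -1.60 for Tppp and -1.34 for Nim1k.

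Whether LPS lowered the genes in rats that were also hypoxic was tested as COMB minus HPO, which shares no pool with LPS minus CTL. The genes were, however, chosen with earlier results of these data known. In COMB minus CTL, Nim1k was number 3 from the lowest of the 12853 genes, Tppp number 8 and Tac1 number 15. The COMB levels may thus have entered the choice, and this test is not independent support. Tac1 was lower in COMB by 1.99 on the log2 scale, a difference of -1.99 ± 0.245 (SE; 95% confidence interval -2.52 to -1.46; limma adjusted p = 3.81e-04) or 3.97-fold, with all 3 COMB pools below all 3 HPO pools. Nim1k was lower in COMB by a similar size, -2.03 ± 0.316 (-2.72 to -1.34; limma adjusted p = 0.00145) or 4.09-fold, also without overlap. Tppp differed by -0.58 ± 0.224 (-1.07 to -0.09), which did not pass the threshold (limma adjusted p = 0.108), although its groups did not overlap. So 2 of the 3 genes were called lower and none higher, where 8.75% of all probe sets tested were called lower and 6.83% higher. The balance over all probe sets depended on the scaling, with 1756 called higher and 2248 lower here and 2685 higher and 996 lower after scaling to macrophage markers. Of the 12853 genes, Nim1k was number 3 from the lowest, Tac1 number 6 and Tppp number 598. Without the HPO pool of rats 7, 8 and 9, in which Tppp was 234, the Tppp difference was -0.32, and it was -0.72 when the pool of rats 3, 5 and 12 was omitted instead. Under array weights it was -0.93 and passed the threshold (limma adjusted p = 0.00787). The size of the Nim1k difference depends on its low COMB signal, since with a pseudocount of 16 it was -1.40, still called (limma adjusted p = 0.00172).

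The genes that were lowest with LPS alone did not all stay low with LPS under hypoxia. Of the 30 genes with the lowest LPS minus CTL, which include the 3 described here, 14 were called lower in COMB minus HPO by limma and 0 higher. Tac1 and Nim1k are among the 14. Over all probe sets, 8.75% were called lower and 6.83% higher there. Of the 30, 24 had a value below 0, and their median was -0.90 against -0.04 over all probe sets. Star, the cholesterol carrier of steroid synthesis, was the next gene after Tac1 in that order and had -1.80 in LPS minus CTL and -2.00 in COMB minus HPO. Ptgr1, a prostaglandin reductase, had -1.61 and -0.29.

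**Figure D3:**
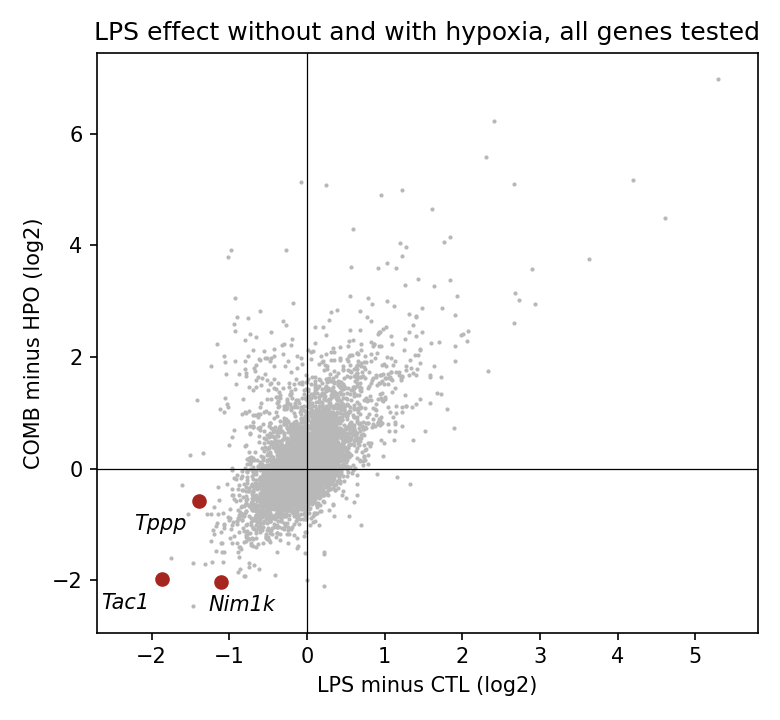
Each grey point is 1 of 12853 genes, with LPS minus CTL (log2) on the horizontal and COMB minus HPO (log2) on the vertical axis, which share no pool, and the 3 genes in red. Tac1 (-1.87, -1.99) and Nim1k (-1.11, -2.03) lie low on both axes, and Tppp (-1.39, -0.58) lies nearer to 0 on the vertical axis.

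Whether hypoxia lowered the genes was tested over both LPS states, as the mean of HPO and COMB minus the mean of CTL and LPS, whose estimate does not covary with LPS minus CTL in this balanced design. Tppp fell by 1.00 ± 0.158 on the log2 scale under hypoxia, or 2.01-fold (SE; 95% confidence interval of the difference -1.35 to -0.66; limma adjusted p = 0.00312). An exact permutation test over the 400 ways to exchange pools within each LPS state gave p = 0.005 (two-sided), the smallest it can give. The low level of Tppp in HPO and COMB against CTL was known when it was chosen, so this test is not independent support. Nim1k had -0.60 ± 0.223 (-1.09 to -0.11; limma adjusted p = 0.112; exact permutation p = 0.075), and Tac1 had 0.12 ± 0.173 (-0.26 to 0.49; limma adjusted p = 0.71; exact permutation p = 0.55). The 3 exact p-values are unadjusted. Thus 1 of the 3 genes was called lower and none higher, where 4.29% of probe sets were called lower and 5.83% higher. For Tac1, the interval leaves out a fall larger than 0.26 on the log2 scale.

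These values changed little without the CTL pool of rats 5, 6 and 7 for Tppp, at -1.11 (limma adjusted p = 0.00258), and for Nim1k, at -0.71 (limma adjusted p = 0.0766), while Tac1 became -0.02. Without the COMB pool of rats 10 and 11, in which Nim1k was 29.9, the Nim1k effect was -0.79 and passed the threshold (limma adjusted p = 0.0213), as it did under array weights, at -0.58 (limma adjusted p = 0.0485). With a pseudocount of 16 it was -0.39 (limma adjusted p = 0.136). The call for Tppp remained in each of the 12 fits that left out 1 pool.

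**Figure D4:**
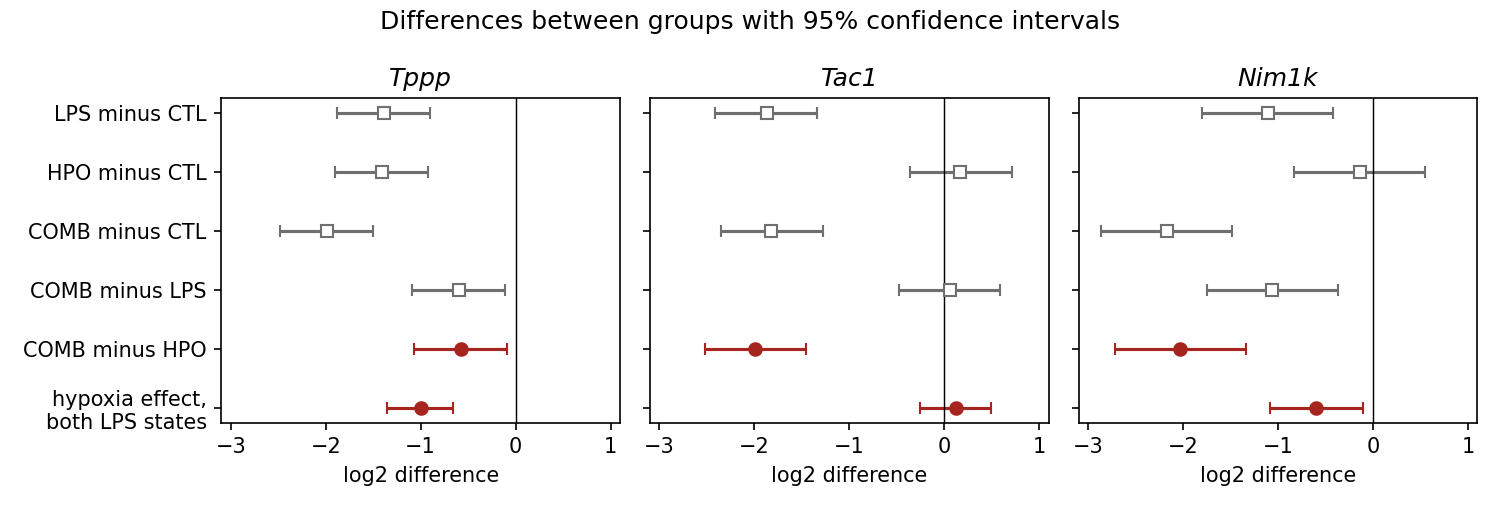
Log2 differences (horizontal axis) with 95% confidence intervals for Tppp, Tac1 and Nim1k. Filled red circles are the 2 tested comparisons and open grey squares are described only. Under hypoxia Tppp fell by 1.00 and the interval, -1.35 to -0.66, leaves out 0, whereas that of Tac1, at 0.12, includes it.

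The effect of hypoxia can also be split by LPS state. These splits use the LPS or CTL pools that chose the genes and are described without a test. Tppp had -1.41 in HPO minus CTL (-1.90 to -0.92) and -0.60 in COMB minus LPS (-1.09 to -0.11). Nim1k had -0.14 in HPO minus CTL (-0.83 to 0.55) and -1.06 in COMB minus LPS (-1.75 to -0.37), and with a pseudocount of 16 the values were -0.12 and -0.65, since its COMB signal was close to background. Tac1 was near 0 in both, with 0.17 (-0.36 to 0.71) and 0.06 (-0.48 to 0.59). Without the CTL pool of rats 5, 6 and 7, HPO minus CTL was -1.62 for Tppp, -0.37 for Nim1k and -0.09 for Tac1.

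If the LPS and HPO differences had simply added on the log2 scale, the COMB pools would have averaged 62 for Tppp, 77.5 for Tac1 and 33.4 for Nim1k. The observed means, taken on the log2 scale, were 110, 71.3 and 17.2. COMB minus this sum was thus 0.81 for Tppp (0.12 to 1.50), -0.12 for Tac1 (-0.87 to 0.64) and -0.92 for Nim1k (-1.89 to 0.06). This quantity holds the LPS minus CTL difference, on whose low value the genes were chosen, which pushes it upward. It also holds the COMB level, which may have entered the choice, and a choice of low COMB levels pushes it downward. For both reasons the intervals are no test of this quantity. Without the CTL pool of rats 5, 6 and 7 it was 1.02 for Tppp, 0.14 for Tac1, with the sign turned, and -0.69 for Nim1k. Against CTL, COMB differed by -1.99 for Tppp, -1.82 for Tac1 and -2.17 for Nim1k, or by -2.20, -2.08 and -2.40 without that pool.

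**Figure D5:**
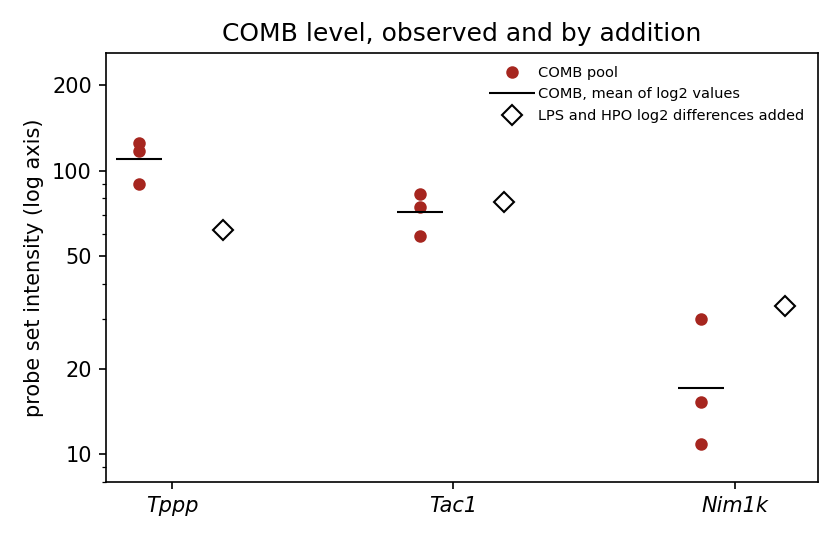
Intensity (log axis) of the 3 COMB pools (points), their mean on the log2 scale (line) and the level given by adding the LPS and HPO log2 differences (open diamonds). Tppp lies above its diamond (110 against 62), Tac1 close to it (71.3 against 77.5) and Nim1k below it (17.2 against 33.4).

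Alveolar macrophage markers fell in part in the tested comparisons. In LPS minus CTL, on which the genes were chosen, their median was only -0.07. There 1 of the 10 was called lower and 0 higher, where 1.18% of all probe sets were called lower and 0.868% higher. In the tested comparisons their median was -0.37 in COMB minus HPO and -0.27 in the hypoxia effect, against -0.04 and -0.02 over all probe sets. The mean of the 10 was -0.13 and -0.16, and that of the 9 other than Car4 was -0.58 and -0.33, with Car4 itself at 3.92 and 1.35. Pparg, the lipid-sensing transcription factor of alveolar macrophages, had -1.17 in COMB minus HPO (limma adjusted p = 1.88e-04), and Cidec, a lipid droplet protein, had -1.86 (limma adjusted p = 2.67e-04). Fabp4 (-0.85), Cd9 (-0.47) and Lpl (-0.41) were also called lower. Car4, a carbonic anhydrase, went the other way and averaged 373 in COMB and 15.4 in HPO (limma adjusted p = 0.00427). So 5 of the 10 were called lower and 1 higher in COMB minus HPO. Over all probe sets, 8.75% were called lower and 6.83% higher there, and 4.29% lower and 5.83% higher in the hypoxia effect. In the hypoxia effect limma called 3 lower, namely Pparg, Lpl and Cidec, and 0 higher, while 5 were lower and 1 higher at an unadjusted p under 0.05.

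The genes were also set against these markers by scaling each array to the mean of the 9 other than Car4, a choice made after the values were seen. Car4 was the only marker called higher in COMB minus HPO. The scaling raised all probe sets by 0.58 in COMB minus HPO and by 0.33 in the hypoxia effect, so values are relative to these markers. With all 10 markers the shifts were 0.13 and 0.16. COMB minus HPO was then -1.41 for Tac1 (limma adjusted p = 2.54e-04) and -1.45 for Nim1k (limma adjusted p = 0.00178), while Tppp had 0.01 (limma adjusted p = 0.983). The hypoxia effect was -0.68 for Tppp (limma adjusted p = 0.00589), -0.27 for Nim1k (limma adjusted p = 0.274) and 0.44 for Tac1, which passed the threshold (limma adjusted p = 0.0261). The Tac1 value holds the shift of 0.33. Most of the probe sets tested were called in both comparisons with this scaling, so nothing about Tac1 alone is read from its call. Scaled to all 10 markers, the hypoxia effect on Tppp was -0.85 (limma adjusted p = 0.00401), and COMB minus HPO was -0.45 for Tppp (limma adjusted p = 0.249), -1.86 for Tac1 (limma adjusted p = 3.02e-04) and -1.90 for Nim1k (limma adjusted p = 9.00e-04).

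Markers of cells known for Tppp or Tac1 in other tissues mostly gave little signal, apart from Calcb and Mbp. Of the 9 measured neuron and neuroendocrine markers, 6 were below the array median on all arrays. Only 1 was called, Calcb, a calcitonin gene-related peptide, which was higher in both tested comparisons. Over all probe sets, 5.83% were called higher in the hypoxia effect and 6.83% in COMB minus HPO. Calcb averaged 415 in COMB, 80.7 in LPS, 144 in HPO and 51.8 in CTL. Of the 15 airway epithelium markers, 14 were also called higher in the hypoxia effect, and whether Calcb shares their cells was not tested. Summed, the 9 were 484 to 802 in COMB, 240 to 303 in LPS, 284 to 362 in HPO and 214 to 258 in CTL. The higher sum in COMB came mostly from Calcb. Of the 7 measured Schwann cell and oligodendrocyte markers, 4 were below the array median on all arrays. Their summed intensity was 427 to 467 in COMB pools, 529 to 569 in LPS pools, 534 to 625 in HPO pools and 601 to 668 in CTL pools, mostly from Mbp, myelin basic protein, at 325 in COMB and 497 in CTL. Mbp had -0.39 in COMB minus HPO (limma adjusted p = 0.0494) and -0.26 in the hypoxia effect (limma adjusted p = 0.0772). Whether the Tppp signal shares its cells with Mbp was not tested.

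Other genes of microtubule biology were called in both directions in the tested comparisons. Of 36 listed tubulins, TPPP family members and microtubule regulators, 31 were measured. In the hypoxia effect 2 were called higher and 4 lower, with a median of -0.07 against -0.02 over all probe sets. In COMB minus HPO 6 were called higher and 4 lower, with a median of 0.09 against -0.04. Over all probe sets, 5.83% were called higher and 4.29% lower in the hypoxia effect, and 6.83% and 8.75% in COMB minus HPO. No result for the list as a group is read from these counts. Tppp3, the paralog expressed in ciliated epithelium, rose in the hypoxia effect, in which Tppp fell. Its intensity averaged 611 in COMB, 280 in LPS, 346 in HPO and 332 in CTL, with a hypoxia effect of 0.61 ± 0.132 (SE; limma adjusted p = 0.0142) and 0.80 in COMB minus HPO (limma adjusted p = 0.0131). Map7, a microtubule-associated protein of epithelial cells, rose by 1.21 in the hypoxia effect (limma adjusted p = 0.00284) and by 1.48 in COMB minus HPO (limma adjusted p = 0.0032). Both rose in these comparisons, as did most airway epithelium markers, of which 14 of 15 were called higher in the hypoxia effect. In LPS minus CTL, Tppp3 had -0.19 and Map7 had 0.80, where the median of the airway epithelium markers was 0.64. The end-binding protein Mapre1 (-0.29), the tubulin Tubb5 (-0.36), the microtubule-stabilizing Map4 (-0.25) and Clasp2 (-0.24) fell in the hypoxia effect. In COMB minus HPO, the tubulins Tubb6 (1.04) and Tubb4b (0.85) rose, and Map4 (-0.44), Clasp2 (-0.35), the tubulin deacetylase Hdac6 (-0.45) and the kinase Rock2 (-0.42), which phosphorylates cytoskeletal proteins, fell. In LPS minus CTL, limma called 0 of the 31, and 5 were higher and 3 lower at an unadjusted p under 0.05. Tppp2 was not measured here.

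Few receptors and enzymes of the tachykinin pathway were called. Of 17 listed genes, 11 were measured. Tacr1, the receptor for substance P, averaged 37.2 in COMB, 33.7 in LPS, 33.9 in HPO and 31.6 in CTL and was not called in either tested comparison. Tac3, which encodes neurokinin B, lay between 9.84 and 11.2 in the group means, near the 20th percentile of the arrays, and was not called. Tac4, Tacr2 and Tacr3 were not measured here. Cpe, carboxypeptidase E, which trims neuropeptide precursors, averaged 163 in COMB, 50.3 in LPS, 56.5 in HPO and 32.5 in CTL. It rose by 1.21 in the hypoxia effect (limma adjusted p = 0.00184) and by 1.47 in COMB minus HPO (limma adjusted p = 0.00194). Pam, which amidates the ends of peptides such as substance P, rose by 0.81 in the hypoxia effect (limma adjusted p = 0.00383). Of the 15 airway epithelium markers, 14 were also called higher in the hypoxia effect, and whether Cpe and Pam share their cells was not tested. Ace, an enzyme that can degrade substance P, had -0.31 (limma adjusted p = 0.0111), at group means of 9.07 to 12.7, which are close to background. So 2 were called higher and 1 lower in the hypoxia effect, 1 higher in COMB minus HPO, and limma called 0 in LPS minus CTL, with 1 higher and 0 lower at an unadjusted p under 0.05. The medians were 0.06 and -0.03 in the tested comparisons. Over all probe sets, 5.83% were called higher and 4.29% lower in the hypoxia effect, and 6.83% and 8.75% in COMB minus HPO.

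Nim1k belongs to the wider family of AMPK-related kinases, of which 24 of 26 listed genes, with the AMPK subunits and the LKB1 complex that activates them, were measured. In COMB minus HPO, 4 were called lower and 1 higher. Over all probe sets tested, 8.75% were called lower and 6.83% higher there, and 4.29% lower and 5.83% higher in the hypoxia effect. Prkaa1, a catalytic AMPK subunit, averaged 318 in COMB and 533 in HPO, a difference of -0.74 ± 0.114 (SE; limma adjusted p = 0.00143). Prkaa2, the alternative catalytic subunit, had 0.16 and was not called (limma adjusted p = 0.551). Stradb, a pseudokinase of the LKB1 complex family, had -0.63 (limma adjusted p = 0.00809), and the salt-inducible kinases Sik2 and Sik3 had -0.52 (limma adjusted p = 0.0101) and -0.45 (limma adjusted p = 0.0364). Nuak2 rose by 0.60 (limma adjusted p = 0.0284). In the hypoxia effect, Prkab1, a regulatory AMPK subunit, rose by 0.49 (limma adjusted p = 0.00116) and Hunk fell by 0.26 (limma adjusted p = 0.0406). These differences were smaller than that of Nim1k in COMB minus HPO, and the list medians were -0.03 and -0.04. In LPS minus CTL, limma called 0 of the 24, with 0 higher and 3 lower at an unadjusted p under 0.05.

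The genes whose log2 values over the 12 pools were most like each of the 3 were sought among all 12853 genes with Pearson's r, as a description. All genes were measured on the same 12 arrays and the pools fall into 4 groups, so high values are common. Tppp was most like Hdac8, a histone deacetylase (r = 0.91), C2cd2l (0.90), Rgcc (0.89), Foxn2 (0.89) and Ttll1, a tubulin-modifying enzyme (0.89). Hdac8 averaged 28.7 in COMB, 40.5 in LPS, 43.2 in HPO and 66.7 in CTL, which is the order of Tppp. Tac1 was most like Ing2 (0.98), Cdyl (0.98), Eci2 (0.97), Mrgprx3 (0.97) and Decr1 (0.97). Eci2 and Decr1 encode enzymes of fatty acid oxidation, and Decr1 averaged 458 in COMB, 473 in LPS, 758 in HPO and 751 in CTL. Nim1k was most like Ppt2 (0.98), Ceacam1, a cell adhesion molecule (0.98), Dmxl2 (0.98), Inpp5f (0.97) and Cndp1, a carnosine-cleaving dipeptidase (0.97). Cndp1 averaged 1138 in COMB, 1560 in LPS, 2418 in HPO and 2376 in CTL.

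Among the 3 genes themselves, r was 0.81 for Tac1 and Nim1k, 0.68 for Tppp and Nim1k and 0.61 for Tppp and Tac1. After the group means were taken out, which leaves the spread between pools of a group, it was 0.26, 0.08 and 0.47. For the 5 genes most like each, the same measure was 0.28 to 0.56 for Tppp, with 0.48 for Hdac8 and 0.28 for Foxn2, 0.71 to 0.90 for Tac1 and 0.85 to 0.90 for Nim1k.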

How the data were processed

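Rat BALF-cell RNA was measured on 12 Affymetrix Rat Genome arrays. The authors deposited 1 linear intensity per probe set and array, which they had derived from the scans. Their normalization method is not given in the sources used here, and the scanned array files were not analysed here. Array medians lay between 32.61 and 35.51. Precision is limited by having 12 arrays. Groups came from the sample labels, and 0 columns were left unused. Gene names came from GEO's platform annotation, in which 20832 probe sets name 1 gene, 436 several and 9831 none.

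The 57 control probe sets were left out. Probe sets had to exceed their array's 20th percentile on 3 or more arrays (25692 kept). A gene is its probe set with the highest mean among those that name it alone. limma 3.58.1 in R 4.3.3 fitted 4 group means to log2 of the intensity plus 1, with 8 residual degrees of freedom and Benjamini-Hochberg adjustment over all probe sets at 0.05. The pseudocount slightly understates changes of dim probe sets. The fit was tested on simulated data. Promoters were searched with Python 3.11.15. Exact permutation tests used the pools of single genes.

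The genes, the gene lists and the tests were chosen with earlier results of these data known. The genes named are the 3 chosen, the 5 most like each, the 3 next in rank, and called or related genes of the 3 pathway lists. Markers, Star, Ptgr1 and genes that complete a small count were named after their values were seen. Alternatives were quantile normalization, centring, another pseudocount, other filters, array weights, a trended and robust fit, pairs of groups alone, the methods' t-test, a replicate block, omission of each pool, and, added after the data were seen, scaling to macrophage markers with and without Car4.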

Additional observations from a re-analysis of the deposited data

How the results depend on the processing

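COMB minus HPO for Tac1 and Nim1k and the hypoxia effect on Tppp kept their direction and their call under every alternative run. With array weights, Tppp in COMB minus HPO was -0.93 (limma adjusted p = 0.00787) and the hypoxia effect on Nim1k was -0.58 (limma adjusted p = 0.0485), both then past the threshold. Tac1 in COMB minus LPS turned to -0.04 with quantile normalization and -0.02 with array weights. The cause was not tested. With 1 pool left out, LPS minus CTL ranged from -1.60 to -1.27 for Tppp, -2.14 to -1.64 for Tac1 and -1.34 to -0.87 for Nim1k. HPO minus CTL ranged from -1.66 to -1.27, from -0.09 to 0.40 and from -0.37 to -0.01 in the same order of genes, COMB minus LPS from -0.69 to -0.46, from -0.05 to 0.19 and from -1.44 to -0.76, COMB minus HPO from -0.72 to -0.32, from -2.22 to -1.85 and from -2.41 to -1.73, and the hypoxia effect from -1.13 to -0.93, from -0.02 to 0.23 and from -0.79 to -0.45. The probe sets called numbered 525 in LPS minus CTL, with 3702 under array weights, 1147 from the LPS and CTL pools alone and 64 (without the CTL pool of rats 8, 9 and 10) to 783 with 1 pool left out. They numbered 4004 in COMB minus HPO, with 6774 under array weights, 1933 from those pools alone, 17 by the methods' t-test with adjustment (4793 unadjusted; run for the count only) and 2880 to 4289 with 1 pool left out. They numbered 2598 in the hypoxia effect (1497 higher, 1101 lower), with 6238 under array weights and 1518 to 3176 with 1 pool left out. Quantile normalization gave 1562 higher and 1914 lower there, centred arrays 1188 higher and 1481 lower. Scaling to the 10 macrophage markers gave 5317 there (5015 higher, 302 lower) and moved all probe sets by 0.16. It gave 2685 higher and 996 lower in COMB minus HPO, against 1756 and 2248. Scaling to the 9 markers other than Car4, which moved all probe sets by 0.33 in the hypoxia effect, 0.58 in COMB minus HPO and 0.08 in LPS minus CTL, gave 15697, 20275 and 312 called. With it Tppp turned to 0.01 in COMB minus HPO and was -0.02 in COMB minus LPS, where Tac1 was 0.63, and the hypoxia effect on Tac1 was 0.44 (limma adjusted p = 0.0261). Nim1k in COMB minus HPO was -1.40 with a pseudocount of 16, which shows how its low COMB signal limits the size. The rat numbers that LPS and CTL pools share do not pair them (correlations of deviations 0.039, -0.00764 and -0.00159). A replicate block by these numbers called 736 in LPS minus CTL and left the 3 differences at -1.39, -1.87 and -1.11. Averaging the probe sets of each gene was not run, since each gene had 1.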
